A study of Mus musculus with 12 samples.

Results

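The 10 genes described here are ligands, receptors and SMADs of the mouse transforming growth factor beta (TGF-beta) pathway. They are the ligands Tgfb1, Tgfb2 and Tgfb3, the receptors Tgfbr1, Tgfbr2 and Tgfbr3, and the intracellular mediators Smad2, Smad3, Smad6 and Smad7. They were taken by symbol from lung expression tables of 20774 genes, and all 10 were listed in each of the 12 libraries and passed the filter on low counts. All animals were wild-type C57BL/6J mice, labelled as 8 weeks old, and their lung RNA was sequenced. Treated mice had received 1 intratracheal dose of paraquat (PQ), a herbicide that injures the lung, dissolved in saline, and controls had received saline. The 4 groups of 3 libraries were control 1w, PQ 1w, control 4w and PQ 4w, with the time labels read as weeks. The labels do not say that replicates were separate mice, so a p-value here reflects library-to-library spread, which may be technical. The libraries came from homogenized whole lung, in which fewer cells of a type and less RNA per cell cannot be told apart.

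TGF-beta is secreted bound to its own propeptide, and in that latent form it is stored in the extracellular matrix until it is released. The released ligand binds the type II receptor Tgfbr2, which recruits and activates the type I receptor Tgfbr1, and Tgfbr1 phosphorylates Smad2 and Smad3, which then enter the nucleus and regulate transcription. In lung, TGF-beta is best known for driving fibroblasts to make collagen, and Smad6 and Smad7 act as inhibitors of receptor and SMAD signalling.

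4 short coding windows are shown because they mark how the members of a family differ in use. Bases are 5′ to 3′ on the coding strand, from GENCODE M21 transcripts on GRCm38. In the first pair, capitals mark the codons of the arginine-glycine-aspartate motif in the propeptide, through which integrins bind and release latent TGF-beta. Tgfb1 carries it in exon 5 of 7 (chr7:25697130-25697159, plus strand) and Tgfb3 in exon 5 of 7 (chr12:86062156-86062185, minus strand), whereas the coding sequence of Tgfb2 held 0 copies. In the second pair, which gives the last codons before the stop, capitals mark the serine codons of the tail that Tgfbr1 phosphorylates. Smad3 ends with them in exon 9 of 9 (chr9:63650265-63650294, minus strand), and Smad6, an inhibitory SMAD, ends in exon 4 of 4 without them (chr9:63953527-63953556, minus strand).
Tgfb1: agccccaaacgtCGGGGCGACctgggcacc
Tgfb3: gatgaccatggcCGTGGAGACctggggcgt
Smad3: tccccgagcatccgctgtTCCAGTgtgTCT
Smad6: tggctggagatcctactcaacaaccacaga

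Library totals were 17220978 to 18559809 expected counts, and 15921 genes were tested. The first principal component, with 51.1% of the variance, set PQ 1w (68.9 to 73.8) apart from all other libraries (-40.6 to -6.19). PQ 4w replicate 3 stood apart from its group on the second component (4.92 against -42.0 and -40.3). The 4w log2 effects or adjusted p-values of the 10 genes, and the shares, are therefore also given without it. The defining markers of alveolar type 2 cells (Sftpc and 5 others), a cell type particular to lung, were all present. Their summed level was 15847 to 32623 library-scaled counts (CPM, with trimmed mean of M values factors). Cardiac muscle markers were also present, with summed CPM of 386 to 1152 in control 4w and 9.61 to 729 in the other groups.

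At 1w all 3 ligands and both signalling receptors were higher in PQ lungs, while the co-receptor Tgfbr3 and the inhibitors Smad6 and Smad7 were lower. The largest effects were the fall of Smad6, at 0.396 times control, and the rise of Tgfb3, at 1.85-fold. Smad2 and Smad3, which carry the receptor signal, did not pass the test. Of the 10 genes 5 rose and 3 fell at an adjusted p under 0.05, where 48.8% of all genes tested passed in either direction, 25.9% as higher and 22.9% as lower. The PQ and control values did not overlap for 9 of the 10, a state found for 58.7% of all genes. The median log2 effect of the family was 0.16, beside 0.005 over all genes.

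At 4w fewer of the genes passed. Tgfbr1 rose 1.39-fold, Tgfbr2 rose 1.18-fold and Smad6 fell to 0.386 times control, and the other 7 genes did not pass. Across all genes 12.1% passed at 4w, 5.75% as higher and 6.39% as lower. The values did not overlap for 5 of the 10 genes, against 31.2% of all genes, and the median log2 effect was 0.009 beside 0.004. Adjusted p-values here are from edgeR's quasi-likelihood F-test over all genes, and ± on a log2 effect is its standard error. On the FPKM scale the split of calls over all genes at 4w moved from 915 higher and 1017 lower to 1146 higher and 607 lower, while the same number of the 10 genes, 3, passed. More genes were also higher than lower with DESeq2 (1154 and 1059), RLE factors (981 and 802) and no filter (836 and 796). Fewer were higher than lower with the replicate block (781 and 865) and in a fit of only the 2 groups compared (366 and 380).

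**Figure D1:**
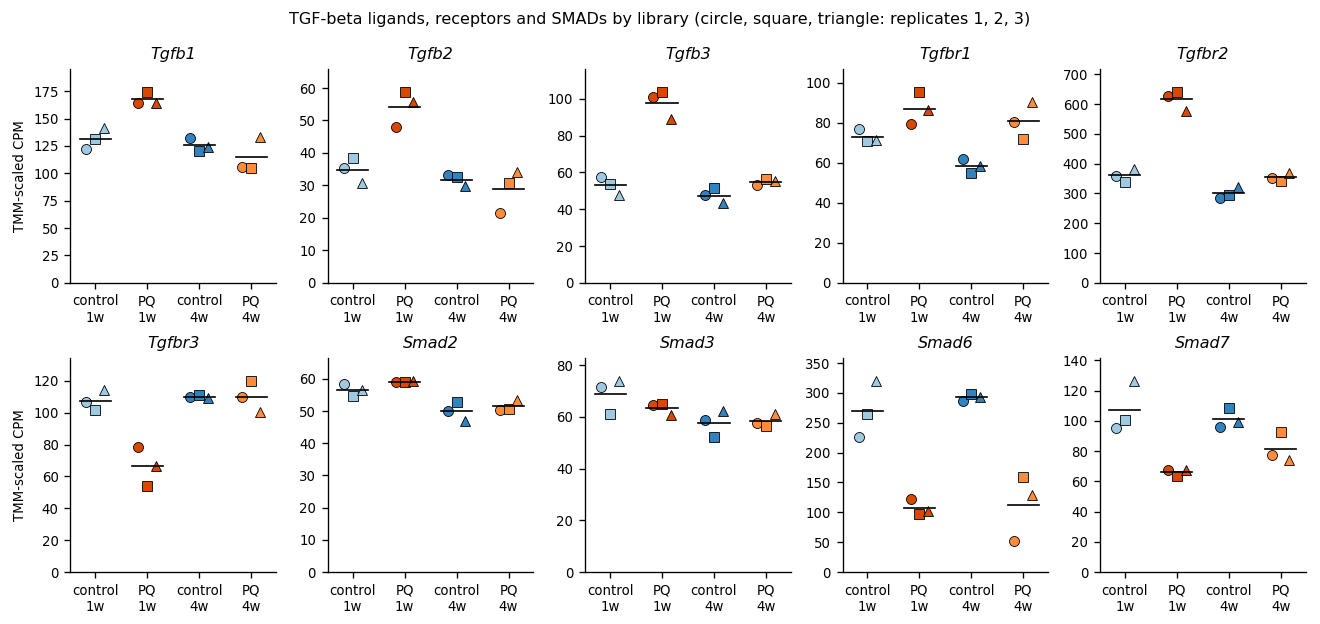
TMM-scaled CPM (y axis, from 0) of each of the 10 genes in the 3 libraries of each group (x axis); symbols are replicates and the line is the group mean. Tgfb1, Tgfb2, Tgfb3 and Tgfbr2 peak in PQ 1w, Tgfbr3 is lowest in PQ 1w, and Smad6 is lower in all 6 PQ libraries than in all 6 controls.

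**Figure D2:**
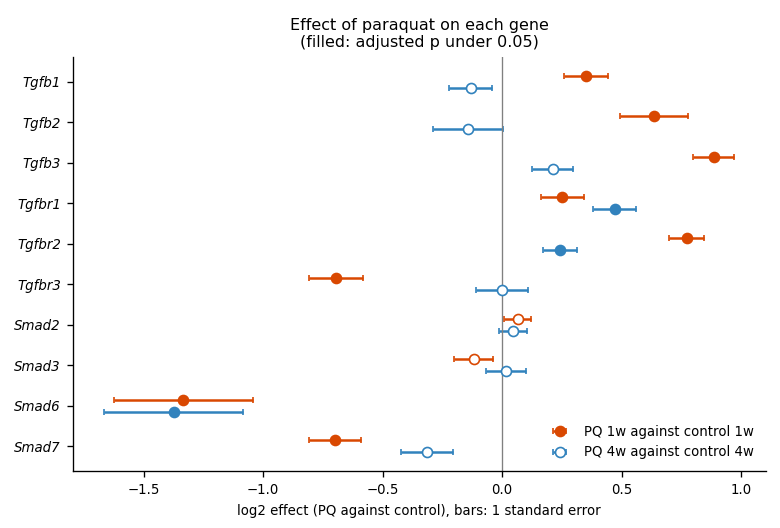
log2 effect of PQ against control (x axis) for each gene (y axis) at 1w (orange) and 4w (blue); bars are 1 standard error and filled points had an adjusted p under 0.05. At 1w 8 of 10 points are filled and at 4w 3 of 10, and the 2 points of Smad6 lie side by side near -1.3.

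Tgfb1 encodes the most abundant ligand and the one most often tied to fibrosis. Tgfb1 (gene ID 21803) spans chr7:25687002-25705077 on the plus strand of GRCm38. Its CPM were 122, 131 and 141 in control 1w, 164, 175 and 164 in PQ 1w, 133, 121 and 124 in control 4w, and 106, 105 and 133 in PQ 4w. Every PQ 1w library was above every control library, and at 4w the PQ values lay on both sides of the control range. The log2 effect was 0.35 ± 0.09 at 1w (1.28-fold, adjusted p = 0.00671) and -0.13 ± 0.09 at 4w (adjusted p = 0.384). Without PQ 4w replicate 3, the highest of its group, Tgfb1 passed as lower at 4w (-0.25, adjusted p = 0.0444).

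Tgfb2, the ligand without the integrin-binding codons shown above, was the least abundant ligand per length. Tgfb2 (gene ID 21808) spans chr1:186622787-186709697 on the minus strand of GRCm38. Its CPM were 35.4, 38.4 and 30.7 in control 1w, 48.0, 58.9 and 55.6 in PQ 1w, 33.2, 32.5 and 29.8 in control 4w, and 21.6, 30.7 and 34.1 in PQ 4w. The PQ 1w libraries were the 3 highest of all 12, and PQ 4w held both the lowest library and one above all of its controls. The log2 effect was 0.64 ± 0.14 at 1w (1.55-fold, adjusted p = 0.00295) and -0.14 ± 0.15 at 4w (adjusted p = 0.564). Leaving out PQ 4w replicate 1 turned the 4w value to 0.03 and leaving out replicate 3 gave -0.29, neither past the threshold. A small nucleolar RNA gene, Gm26169, and an antisense gene, Gm29491, overlap Tgfb2, and strandedness is not given in the sources used here, so their reads cannot be told apart.

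Tgfb3, the third ligand, had the largest fold of the 3 at 1w as a point estimate. Tgfb3 (gene ID 21809) spans chr12:86056743-86079041 on the minus strand of GRCm38. Its CPM were 57.6, 53.8 and 47.8 in control 1w, 101, 104 and 89.2 in PQ 1w, 47.6, 51.5 and 43.4 in control 4w, and 53.4, 56.3 and 55.3 in PQ 4w. All PQ 1w libraries lay far above every other library, and the PQ 4w libraries lay just above their own controls without overlap. The log2 effect was 0.89 ± 0.09 at 1w (1.85-fold, adjusted p = 5.67e-06) and 0.21 ± 0.09 at 4w (adjusted p = 0.131). Without PQ 4w replicate 3 the 4w effect was 0.206 (adjusted p = 0.184). Ttll5 lies on the opposite strand across Tgfb3, so reads from the 2 genes cannot be told apart where they overlap.

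Per length, the order of the ligands was the same in all 4 groups: Tgfb1, then Tgfb3, then Tgfb2. Mean FPKM (fragments per kilobase, scaled to depth) in control 1w were 58.9 ± 4.18 for Tgfb1, 15.2 ± 1.45 for Tgfb3 and 6.61 ± 0.693 for Tgfb2 (SD, n = 3), so neighbours in that order differed by more than their spread. In PQ 1w they were 75.8 ± 2.83, 28.3 ± 2.09 and 10.4 ± 1.14. The Tgfb3 share of the summed ligand FPKM was 21.2%, 18.9% and 16.6% in control 1w and 25.95%, 25.0% and 23.3% in PQ 1w, with no overlap. It averaged 18.9% and 24.8%, and at 4w 17.9% in control and 21.9% in PQ, where the lowest PQ library (19.3%) fell inside the control range. The Tgfb1 share went the other way, from 72.9% to 66.2% at 1w and from 74.1% to 70.6% at 4w, and the Tgfb2 share was 8.20% and 9.04% at 1w and 7.95% and 7.49% at 4w. An exact two-sided permutation test of 3 libraries against 3 cannot go below p = 0.1. The Tgfb1 and Tgfb3 shares gave p = 0.1 at 1w and p = 0.2 at 4w, and the Tgfb2 share gave p = 0.4 and p = 0.8 in the same exact tests. Over the 14 exact tests of shares in ligands, receptors and SMADs, p = 0.1 became 0.2 after adjustment, so none passed. Without PQ 4w replicate 3 the 4w differences, PQ minus control, were -4.54 points for the Tgfb1 share, -0.672 for Tgfb2 and 5.21 for Tgfb3, with exact permutation p = 0.2, 0.6 and 0.1. With 2 PQ libraries against 3, the Tgfb3 shares no longer overlapped.

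**Figure D3:**
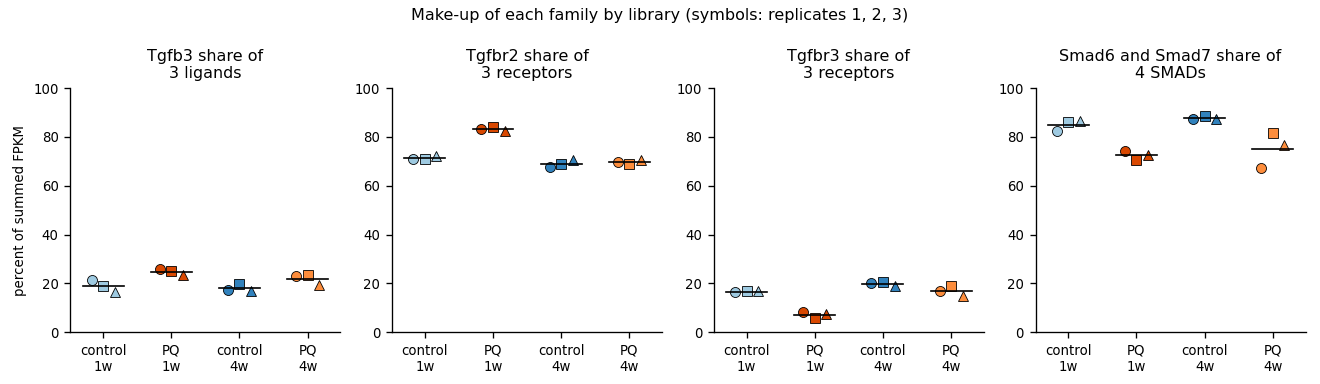
Share of a family's summed FPKM (y axis, percent) in each library by group (x axis), for Tgfb3 among the ligands, Tgfbr2 and Tgfbr3 among the receptors, and Smad6 with Smad7 among the 4 SMADs; symbols are replicates and the line is the mean. PQ 1w stands apart from control 1w in all 4 panels, and at 4w the groups are separate only in the SMAD panel.

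Tgfbr2, the ligand-binding type II receptor, was the most abundant receptor per length in all groups. Tgfbr2 (gene ID 21813) spans chr9:116087695-116175363 on the minus strand of GRCm38. Its CPM were 359, 339 and 383 in control 1w, 628, 641 and 576 in PQ 1w, 285, 294 and 321 in control 4w, and 353, 342 and 369.5 in PQ 4w. PQ libraries were above their own controls at both times without overlap, and those of PQ 4w were within the range of control 1w. The log2 effect was 0.77 ± 0.07 at 1w (1.71-fold, adjusted p = 4.63e-06) and 0.24 ± 0.07 at 4w (1.18-fold, adjusted p = 0.0468). The 4w call was lost without PQ 4w replicate 3 (0.21, adjusted p = 0.117), with the replicate block (0.24, adjusted p = 0.0681) and in 11 other alternatives, with adjusted p up to 0.173.

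Tgfbr1, the type I receptor kinase, stood above its controls by less than Tgfbr2 did at 1w and by more at 4w, as point estimates. Its CPM were 77.1, 70.7 and 71.5 in control 1w, 79.5, 95.5 and 86.2 in PQ 1w, 62.1, 54.7 and 58.6 in control 4w, and 80.6, 72.1 and 90.4 in PQ 4w. Tgfbr1 (gene ID 21812) spans chr4:47353222-47414926 on the plus strand of GRCm38. Groups did not overlap at either time, by a narrow margin at 1w and a wide one at 4w. The log2 effect was 0.25 ± 0.09 at 1w (1.19-fold, adjusted p = 0.0362) and 0.47 ± 0.09 at 4w (1.39-fold, adjusted p = 0.00800; 0.38 and 0.0156 without PQ 4w replicate 3). At 1w the call was lost without control 1w replicate 2 or 3 or without PQ 1w replicate 2 or 3, with adjusted p = 0.0702 to 0.149. Its effects at 4w and 1w differed by 0.22 ± 0.13 (adjusted p = 0.215), which did not pass. Mean CPM were 73.1 in control 1w and 58.5 in control 4w, beside 87.1 in PQ 1w and 81.0 in PQ 4w.

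Tgfbr3 (betaglycan), a co-receptor without kinase activity that presents ligand to Tgfbr2 and can be shed as a decoy, moved against the other receptors at 1w. Tgfbr3 (gene ID 21814) spans chr5:107106567-107289629 on the minus strand of GRCm38. Its CPM were 107, 102 and 114 in control 1w, 78.6, 54.1 and 66.4 in PQ 1w, 109.6, 111 and 109 in control 4w, and 109.9, 119.9 and 100.4 in PQ 4w. The PQ 1w libraries were the 3 lowest of all, and the PQ 4w libraries lay on both sides of their controls. Its log2 effect was -0.69 ± 0.11 at 1w (0.618 times control, adjusted p = 0.000291) and 0.0003 ± 0.11 at 4w (adjusted p = 0.999; 0.060 and 0.779 without PQ 4w replicate 3). Pseudogene and unclassified gene models (Gm8145, Gm43422, Gm43423 and Gm42900) lie within Tgfbr3.

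Among the receptors the FPKM order in control 1w was Tgfbr2 (73.7 ± 4.93), Tgfbr3 (17.2 ± 1.09) and Tgfbr1 (12.5 ± 0.688; SD, n = 3). In PQ 1w Tgfbr1 (14.99 ± 1.44) stood above Tgfbr3 (10.7 ± 1.90), and in PQ 4w Tgfbr3 (18.6 ± 1.42) was again above Tgfbr1 (14.7 ± 1.82). Tgfbr2 made up 70.9%, 71.0% and 72.0% of the summed receptor FPKM in control 1w and 83.1%, 84.0% and 82.3% in PQ 1w. Tgfbr3 made up 16.4%, 16.6% and 16.8% in control 1w and 8.13%, 5.55% and 7.42% in PQ 1w, and Tgfbr1 averaged 12.1% and 9.84%. These receptor shares did not overlap at 1w, and each reached the smallest exact permutation p of 0.1 (0.2 after adjustment). At 4w the mean shares in control and PQ were 69.0% and 69.8% for Tgfbr2, 19.8% and 16.9% for Tgfbr3, and 11.3% and 13.3% for Tgfbr1, with exact permutation p = 0.4, 0.2 and 0.2. Without PQ 4w replicate 3 the differences were 0.413 points for Tgfbr2, -1.86 for Tgfbr3 and 1.45 for Tgfbr1, with exact permutation p = 0.7, 0.3 and 0.3.

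Smad2 and Smad3 are the receptor-activated SMADs, whose activity is set by phosphorylation that RNA does not report. Smad2 CPM were 58.3, 54.8 and 56.6 in control 1w, 59.2, 59.0 and 59.4 in PQ 1w, 50.05, 52.7 and 47.1 in control 4w, and 50.3, 50.8 and 53.5 in PQ 4w. PQ 1w lay above control 1w by a small margin, and the 4w groups overlapped. The Smad2 log2 effect was 0.07 ± 0.06 at 1w (adjusted p = 0.365) and 0.05 ± 0.06 at 4w (adjusted p = 0.652; 0.016 and 0.907 without PQ 4w replicate 3).

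Smad3 (gene ID 17127) spans chr9:63646766-63757994 on the minus strand of GRCm38. Smad3 CPM were 71.6, 61.1 and 73.9 in control 1w, 64.7, 65.0 and 60.6 in PQ 1w, 58.7, 52.3 and 62.2 in control 4w, and 57.6, 56.7 and 61.0 in PQ 4w. Treated and control libraries overlapped at both times. The Smad3 log2 effect was -0.12 ± 0.08 at 1w (adjusted p = 0.254) and 0.02 ± 0.08 at 4w (adjusted p = 0.918; -0.02 without PQ 4w replicate 3).

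Smad6, an inhibitory SMAD that acts mainly on the bone morphogenetic protein branch of the family and is abundant in endothelium, was lower in PQ lungs at both times. Smad6 (gene ID 17130) spans chr9:63953076-64022085 on the minus strand of GRCm38. Its CPM were 225, 265 and 320.0 in control 1w, 122, 96.4 and 103 in PQ 1w, 287, 299 and 293 in control 4w, and 52.0, 159 and 128 in PQ 4w. All 6 PQ libraries were below all 6 controls, with the widest spread in PQ 4w. Its log2 effect was -1.33 ± 0.29 at 1w (0.396 times control, adjusted p = 0.00243) and -1.37 ± 0.29 at 4w (0.386 times, adjusted p = 0.0118). Without PQ 4w replicate 1, the lowest library, the 4w effect was -1.03 (adjusted p = 0.00335), and without replicate 3 it was -1.48 (adjusted p = 0.0133). In a fit of only the 2 groups compared, the 4w call was lost at the same size (-1.37, adjusted p = 0.0678).

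Smad7, the inhibitory SMAD that targets Tgfbr1 for degradation and is itself a TGF-beta-induced gene, was lower at 1w. Its CPM were 95.2, 101 and 126 in control 1w, 67.7, 63.3 and 67.7 in PQ 1w, 96.1, 109 and 99.2 in control 4w, and 77.5, 92.8 and 74.4 in PQ 4w. PQ values were below their controls at both times without overlap, by a narrow margin at 4w. Its log2 effect was -0.70 ± 0.11 at 1w (0.616 times control, adjusted p = 0.000235) and -0.31 ± 0.11 at 4w (0.805 times, adjusted p = 0.0803). Without PQ 4w replicate 3 the 4w adjusted p was 0.176. The 4w value passed without PQ 4w replicate 2 (-0.41, adjusted p = 0.0381) and without control 1w replicate 3 (-0.31, adjusted p = 0.0405).

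Per length, Smad6 (88.8 ± 15.6 FPKM) and Smad7 (23.5 ± 3.67) exceeded Smad3 (13.1 ± 1.41) and Smad2 (6.30 ± 0.270; SD, n = 3) in control 1w. Smad6 and Smad7 together made up 82.5%, 86.0% and 86.7% of the FPKM of the 4 SMADs in control 1w and 74.4%, 70.6% and 72.8% in PQ 1w. At 4w they made up 87.3%, 88.5% and 87.3% in control and 67.2%, 81.5% and 76.9% in PQ, again without overlap. The mean was 85.1% and 72.6% at 1w and 87.7% and 75.2% at 4w, control first, each at the smallest exact permutation p of 0.1 (0.2 after adjustment). Without PQ 4w replicate 1 the 4w difference was -8.53 points, and without replicate 3 it was -13.4 points.

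The inhibitory SMADs were read beside endothelial markers, since Smad6 is abundant in those cells. Over all genes 22.9% were lower at 1w and 6.39% at 4w. Of 7 endothelial markers (Pecam1, Cdh5, Kdr, Tek, Tie1, Cldn5 and Vwf) 6 fell at 1w and 7 at 4w, and none was at 0 in any group. Their summed CPM spanned 4442 to 5118 for control 1w and 3205 to 3591 for PQ 1w, then 4715 to 4956 for control 4w and 2612 to 3548 for PQ 4w. Smad6 per 1000 CPM of these markers spanned 50.7 to 62.5 for control 1w against 28.8 to 34.1 for PQ 1w, and 57.9 to 63.4 for control 4w against 19.9 to 45.9 for PQ 4w, without overlap at either time. The library with the least endothelial marker RNA, PQ 4w replicate 1, was also the lowest for Smad6. Smad7 on the same scale spanned 21.4 to 24.7 for control 1w against 18.8 to 19.7 for PQ 1w. At 4w it spanned 19.4 to 23.1 for control 4w against 21.0 to 29.7 for PQ 4w, where the groups overlapped. Vwf is part of each marker sum and was the marker that did not fall at 1w. Its mean was 755 CPM in control 1w and 880 in PQ 1w (log2 0.22 ± 0.19, adjusted p = 0.364). Smad6 and Smad7 were not scaled to the sum without Vwf. The part of the endothelial markers in the fall of Smad6, Smad7 and Tgfbr3 was not tested.

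**Figure D4:**
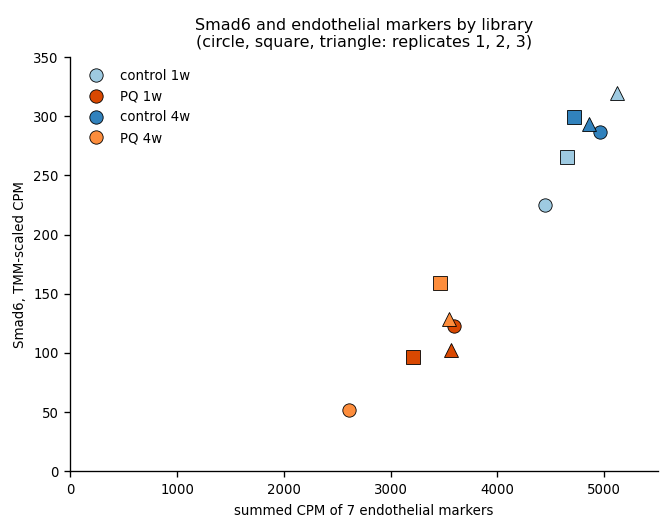
Smad6 CPM (y axis) against the summed CPM of 7 endothelial markers (x axis) in the 12 libraries, coloured by group; symbols are replicates. The 6 PQ libraries lie at 52.0 to 159 for Smad6 and 2612 to 3591 for the markers, below all 6 controls on both axes.

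Markers of other cell types were read beside the ligands and receptors, and the fibroblast and macrophage lists each held genes that rose and genes that fell. For scale, 25.9% of all genes were higher and 22.9% lower at 1w, and 5.75% and 6.39% at 4w. Of 6 fibroblast markers Col1a2 and Col3a1 rose and Pdgfra and Tcf21 fell at 1w, while at 4w Col3a1 rose and Tcf21 fell, and the list's summed CPM spanned 2388 to 2528 for control 1w, 7249.5 to 7748 for PQ 1w, 1749 to 1846 for control 4w and 1937 to 2141 for PQ 4w. Of 6 macrophage markers 4 rose and 1 fell at each time. The gene that fell was Lyz2 at 1w and Marco at 4w, and Cd68, Adgre1 and Mrc1 rose at both times. Summed CPM of the macrophage list were 4786 to 5480.1, 3632 to 4073, 4000.2 to 4108 and 4769 to 5705 in the same order of groups. Most of each sum was Lyz2, with mean CPM of 4935, 3167, 3823 and 4974. All 8 lymphocyte markers fell at 1w (summed CPM from 113 to 123 for control 1w against 33.8 to 40.2 for PQ 1w) and 1 rose at 4w. All 6 alveolar type 2 markers fell at 1w and 2 rose at 4w, and 3 of 5 smooth muscle markers rose at 1w and 1 fell at 4w. At 1w the other lists had, as higher and lower, 1 and 2 of 6 alveolar type 1, 0 and 2 of 6 airway, 0 and 2 of 5 neutrophil, 1 and 4 of 5 platelet, 1 and 0 of 4 mesothelium, and 0 and 0 of 5 cardiac markers. At 4w they had 0 and 2, 0 and 1, 0 and 5, 0 and 3, 0 and 0, and 0 and 0. No marker of any list was at 0 throughout a group, and the part of these lists in the ligand and receptor values was not tested.

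The change with time was tested as the difference between the PQ effect at 4w and at 1w, in which 32.0% of all genes passed, 14.1% as higher and 17.9% as lower. Of the 10 genes 4 passed as lower and 1 as higher. The difference in log2 effect was -0.48 ± 0.13 for Tgfb1 (adjusted p = 0.0134), -0.78 ± 0.20 for Tgfb2 (0.0125), -0.67 ± 0.12 for Tgfb3 (0.00155) and -0.53 ± 0.10 for Tgfbr2 (0.00233). Tgfbr3 went the other way, by 0.69 ± 0.16 (adjusted p = 0.00566). All 5 calls held without PQ 4w replicate 3. Smad6 had near-equal effects at both times, with a difference of -0.04 ± 0.40 (adjusted p = 0.950), an error that leaves room for a difference of either sign. Smad7 differed by 0.39 ± 0.15 (adjusted p = 0.0732), which passed with DESeq2 (0.42, adjusted p = 0.0435) and without control 1w replicate 1 (0.46, adjusted p = 0.0427).

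Between the treated groups themselves, 54.5% of all genes differed, 26.7% as higher and 27.8% as lower in PQ 4w. Tgfb2 (log2 difference -0.91 ± 0.14), Tgfb3 (-0.83 ± 0.09), Tgfbr2 (-0.79 ± 0.07) and Tgfb1 (-0.55 ± 0.09) were lower at 4w than at 1w, with adjusted p-values from 3.67e-06 to 0.000327. Smad2 was lower by a smaller amount (-0.20 ± 0.06, adjusted p = 0.0110), a call lost on the FPKM scale (adjusted p = 0.188). Tgfbr3 (0.73 ± 0.11, adjusted p = 0.000181) and Smad7 (0.30 ± 0.11, adjusted p = 0.0335) were higher, and the Smad7 call was lost when any PQ 1w library or PQ 4w replicate 2 was left out (adjusted p = 0.0631 to 0.167). Smad6 did not pass (0.08 ± 0.29, adjusted p = 0.842) but was higher in PQ 4w without PQ 4w replicate 1 (0.42, adjusted p = 0.0302). Tgfbr1 (-0.10 ± 0.09, adjusted p = 0.351) and Smad3 (-0.12 ± 0.08, adjusted p = 0.240) did not pass either.

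Saline lungs served as the background for time, and there 10.1% of all genes differed between 4w and 1w, 5.90% as higher and 4.20% as lower. With DESeq2 this split moved from 940 higher and 669 lower to 1133 higher and 1223 lower, and on the FPKM scale to 951 higher and 510 lower. Tgfbr1 (-0.32 ± 0.09, adjusted p = 0.0461) and Tgfbr2 (-0.27 ± 0.07, adjusted p = 0.0408) were lower in control 4w, and none of the other 8 genes passed. Both receptor calls were lost with the replicate block (adjusted p = 0.0625 for Tgfbr1 and 0.0546 for Tgfbr2) and when control 1w replicate 1 or 3, PQ 1w replicate 3 or any control 4w library was left out. The Tgfbr1 call was also lost without control 1w replicate 2 (adjusted p = 0.0532) and on log2 FPKM (0.0669 and 0.0730 with the 2 pseudocounts). Smad2 passed as lower with DESeq2 (-0.21, adjusted p = 0.0293), with RLE factors (0.0459) and without PQ 4w replicate 3 (0.0485), and Smad3 with DESeq2 (-0.28, adjusted p = 0.0283) and without control 1w replicate 2 (0.0302). Marker lists also differed between the saline groups: 4 of 5 cardiac, 3 of 6 airway and 2 of 5 platelet markers were higher in control 4w, and 4 of 6 macrophage, 2 of 6 fibroblast, 2 of 4 mesothelium, 2 of 6 alveolar type 2 and 1 of 8 lymphocyte markers were lower. Summed CPM of the airway list spanned 22364 to 31404 for control 1w and 46071 to 54935 for control 4w, and those of the mesothelium list 196 to 232 and 109 to 155. Cardiac sums spanned 9.61 to 194 for control 1w and 386 to 1152 for control 4w, without overlap. The sums of the macrophage and fibroblast lists are given above. The part of these lists in the Tgfbr1 and Tgfbr2 values was not tested. The PQ effects at each time were taken against the controls of that time.

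Upstream of the receptors, genes linked by function or family to the storage, processing or presentation of latent TGF-beta were mixed at 1w. Of 9 such genes 5 rose (Ltbp1, Ltbp2, Furin, Thbs1 and Emilin1), 2 fell (Ltbp4 and Lrrc32) and 2 did not pass, with a median log2 effect of 0.38, where 48.8% of all genes passed. Ltbp2, a latency-family protein of elastic fibres that does not itself bind latent TGF-beta, went from 157 ± 18.7 to 576 ± 68.9 CPM (SD, n = 3; log2 1.87 ± 0.12, adjusted p = 2.79e-07). Emilin1, an elastic fibre protein that hinders processing of the Tgfb1 precursor, went from 114 ± 9.19 to 242 ± 6.35 CPM (1.08 ± 0.08, adjusted p = 8.10e-07). Ltbp4, which binds latent Tgfb1, fell from 986 ± 119 to 483 ± 41.7 CPM (-1.03 ± 0.11, adjusted p = 1.81e-05). Lrrc32 (GARP), which displays latent Tgfb1 on the cell surface, had a log2 effect of -0.33 ± 0.12 (adjusted p = 0.0319), lost without control 1w replicate 2 or 3 or PQ 1w replicate 1 or 3. At 4w 1 of 9 passed, Ltbp2 (0.60 ± 0.12, adjusted p = 0.00779), where 12.1% of all genes passed, and the median was -0.15.

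Co-receptors, partners and decoys changed in both directions. Of 8 genes 2 rose and 3 fell at 1w (median log2 -0.13), where 48.8% of all genes passed. At 4w 1 rose and 2 fell (median -0.14), where 12.1% of all genes passed. Cd109, a membrane-anchored co-receptor that dampens TGF-beta signalling, went from 2.41 ± 0.368 to 36.5 ± 3.66 CPM at 1w (log2 3.92 ± 0.18, adjusted p = 2.99e-08) and from 2.40 ± 0.324 to 3.35 ± 0.804 CPM at 4w (0.48 ± 0.19, adjusted p = 0.132). Dab2, an adaptor that links receptors to SMADs, rose 2.25-fold at 1w (adjusted p = 4.93e-07) and 1.26-fold at 4w (adjusted p = 0.0198), the latter lost without control 4w replicate 1 or 2 or PQ 4w replicate 1. Acvrl1, a type I receptor of endothelium, fell at 1w (-0.90 ± 0.11, adjusted p = 2.75e-05) and at 4w (-0.49 ± 0.11, adjusted p = 0.0131). Eng (endoglin), an endothelial co-receptor, had log2 effects of -0.98 ± 0.20 at 1w (adjusted p = 0.00152) and -0.999 ± 0.198 at 4w (adjusted p = 0.00877), where a fit of only the 2 groups lost the call (adjusted p = 0.0593). Bambi, a pseudoreceptor without a kinase domain, fell at 1w (-0.82 ± 0.10, adjusted p = 2.87e-05) and had -0.18 ± 0.09 at 4w (adjusted p = 0.235). Eng and Acvrl1, like Smad6, were lower beside the lower endothelial markers given above, whose part was not tested.

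Regulators that act on SMADs in the cell included 8 of 12 that did not pass at 1w: 2 of 12 rose and 2 fell at 1w, and 1 rose and 1 fell at 4w, with median log2 effects of -0.04 and 0.04. Over all genes 48.8% passed at 1w and 12.1% at 4w. Smad4, the common partner of activated SMADs, had -0.12 ± 0.06 at 1w (adjusted p = 0.131) and 0.04 ± 0.06 at 4w (adjusted p = 0.718), and was named after its values were seen. Tgif1, a SMAD co-repressor, rose at 1w (0.59 ± 0.12, adjusted p = 0.00139) and at 4w (0.67 ± 0.12, adjusted p = 0.00473). Smurf1 rose at 1w (0.28 ± 0.06, adjusted p = 0.00295) while its relative Smurf2 fell (-0.70 ± 0.10, adjusted p = 0.000162); both encode ubiquitin ligases that act on receptors and SMADs. Smurf2 was also lower at 4w (-0.50 ± 0.10, adjusted p = 0.0107), a call lost without control 4w replicate 1 or 3. Nedd4l, a ligase that removes activated Smad2 and Smad3, fell from 164 ± 8.51 to 82.0 ± 3.12 CPM at 1w (SD, n = 3; adjusted p = 1.29e-06).

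Genes known to be induced by TGF-beta were higher at 1w in 12 of 14 cases, with 0 lower and a median log2 effect of 1.301, where 25.9% of all genes were higher. The list was chosen from known targets, but with earlier results of these data known, so the count is not an independent test. It does not hold Smad7, which TGF-beta also induces and which fell at 1w (-0.70, adjusted p = 0.000235). Col1a1, a chain of type I collagen, went from 636 ± 24.8 to 4031 ± 358 CPM (log2 2.66 ± 0.09, adjusted p = 6.67e-09). Among the others that passed as higher were Pmepa1, Snai1, Ctgf, Tgfbi, Il11, Fn1 and Acta2, while Postn (0.11 ± 0.10) and Comp (0.88 ± 0.43) did not pass. At 4w 2 of 14 passed as higher and 0 as lower, where 5.75% of all genes were higher and 12.1% passed in either direction. Among them was Fn1, which encodes fibronectin (375 ± 57.9 to 655 ± 67.3 CPM, 0.80 ± 0.18, adjusted p = 0.0144). Without control 4w replicate 1 or 2 the 4w count was 1. In the test of the difference between times, 11 of the 14 passed as lower at 4w and 0 as higher. Over all genes 17.9% passed that test as lower and 14.1% as higher. Several of these genes are also made in bulk by fibroblasts, whose marker levels are given above. In PQ 1w most of that marker sum (mean 7426 CPM) was the collagens Col1a2 (3078) and Col3a1 (3586), while Pdgfra and Tcf21 fell. Acta2 is also in the smooth muscle list. The part of either list in these values was not tested.

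**Figure D5:**
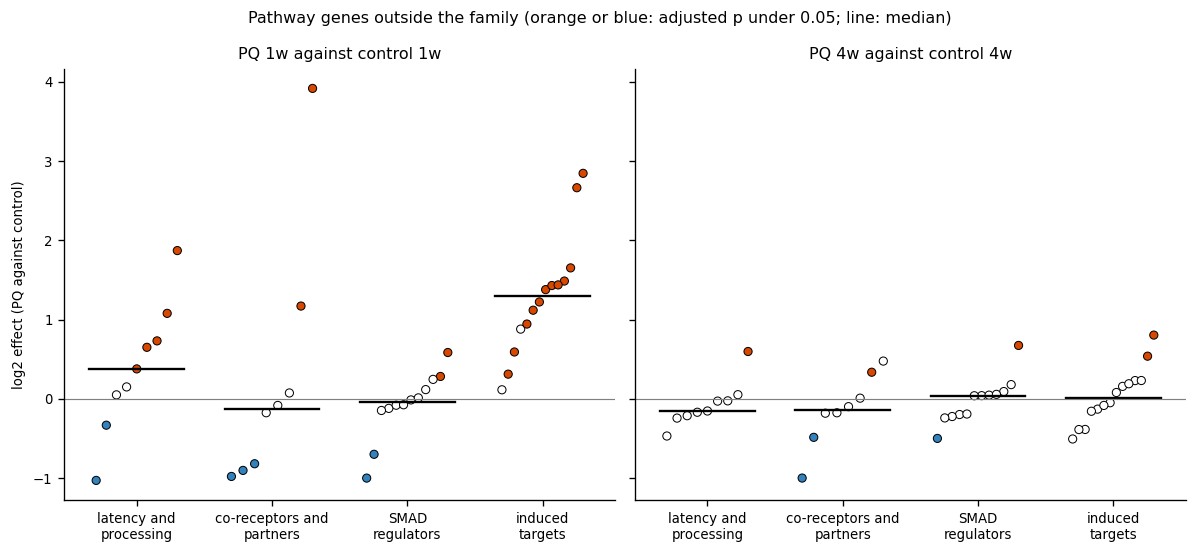
log2 effect of PQ against control (y axis) for each gene of 4 pathway lists (x axis) at 1w (left) and 4w (right); orange and blue points had an adjusted p under 0.05 as higher and lower, and lines are list medians. At 1w 12 of 14 induced targets are orange around a median of 1.301, and at 4w the medians of all 4 lists lie between -0.15 and 0.04.

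Upstream sequence is shown for Tgfbr2, the receptor that rose most at 1w, and for Smad6, the member that fell at both times. The RefSeq promoter table (GRCm38.p6) held 6 of the 10 genes, and 3 motifs were searched on both strands of its windows, which run from 250 bases before a start: CAGAC (the SMAD-binding element), GGCGCC (a GC-rich SMAD motif) and TGANTCA (an AP-1 site). These were found in 42.2%, 9.59% and 6.75% of 32851 windows. Capitals mark CAGAC, which has 1 match in the Tgfbr2 window (chr9:116175364-116175613, minus strand), while the Smad6 window (chr9:64022086-64022309, minus strand) holds 0 of the 3. Over the whole windows Tgfb2 had 2 CAGAC matches, Tgfbr1 had 1 in 1 of its 2 windows and 1 GGCGCC in the other, and Tgfb1 and Smad3 had 0 of any. A match describes the letters only.
Tgfbr2: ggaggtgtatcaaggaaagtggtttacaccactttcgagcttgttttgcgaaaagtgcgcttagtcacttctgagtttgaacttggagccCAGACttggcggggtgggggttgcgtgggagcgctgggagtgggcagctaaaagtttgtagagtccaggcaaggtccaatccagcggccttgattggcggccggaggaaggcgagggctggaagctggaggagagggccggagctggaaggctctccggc
Smad6: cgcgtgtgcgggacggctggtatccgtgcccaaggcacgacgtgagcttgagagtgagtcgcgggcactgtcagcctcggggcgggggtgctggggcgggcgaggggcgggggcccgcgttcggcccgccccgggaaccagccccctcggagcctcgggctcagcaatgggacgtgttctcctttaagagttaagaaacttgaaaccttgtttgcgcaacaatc

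For each gene that passed at 1w, the 2 genes with the most similar profile were taken from 12232 genes, by the root mean square difference of log2 CPM over 12 libraries after each gene was centred on its own mean. Tgfb1 was closest to Rap2a (0.0565) and Desi1 (0.0725), and Tgfb2 to Cfl1 (0.122) and Ranbp1 (0.133). Tgfb3 was closest to Cd34 (0.0968) and Topbp1 (0.104), against its own spread about its mean of 0.414. Tgfbr1 was closest to Shtn1 (0.0826) and Pik3c2a (0.0835), Tgfbr2 to Olfml3 (0.0939) and Myof (0.0954), and Tgfbr3 to B4galt4 (0.0985) and Unkl (0.106). Smad6, with the widest spread of the 8 (0.802), was closest to Fibin (0.154) and to Ednrb (0.176), which encodes an endothelin receptor, and Smad7 to Card10 (0.103) and She (0.119). The 12 libraries share groups, so a gene with similar group means scores as similar.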

How the data were processed

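Per the labels' protocols, the instrument was a BGISEQ 500 and the input was homogenized lung; HISAT, RSEM 1.2.12 and mm10 are named in the submitters' processing notes. The authors deposited RSEM expected counts per gene without depth scaling, FPKM and gene lengths, per the file headers. Neither the annotation release nor strandedness is given in the sources used here. Genes were matched by symbol; 27 symbols turned into dates were replaced from gene IDs. Of the deposited expected counts above 0, 69.7% were exactly whole (no tolerance); all were rounded to whole numbers before the tests. Genes absent from a library's table counted as 0.

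Differences were tested with edgeR (quasi-likelihood F-test) on all 12 libraries with 4 group means, TMM scaling (factors 0.974 to 1.06) and filterByExpr (minimum count 10, minimum total 15), with Benjamini-Hochberg adjustment over 15921 genes. Standard errors are the absolute log2 effect over the square root of F. FPKM were used for shares and for levels between genes, and the deposited length of 24.7% of genes was not the same in every library. The member genes, the 4 pathway lists and the 12 marker lists (alveolar type 2, alveolar type 1, endothelium, fibroblast, smooth muscle, airway, macrophage, neutrophil, lymphocyte, platelet, mesothelium, cardiac) were chosen with earlier results of these data known. Named genes were all 10 members and, from each pathway list, the 2 smallest adjusted p-values in each direction at 1w and the 1 in each direction at 4w; others named were chosen after their values were seen. The values of 1 gene that this rule names are not reported here. Similar genes needed a mean of at least 5 CPM. Libraries of a group differed by more than sampling noise (chi-square per degree of freedom from 7.12 to 32.9). Alternatives were DESeq2, RLE factors, no filter, a replicate block, each library left out, only the groups compared and limma on log2 FPKM with pseudocounts 0.1 and 1. Versions were R 4.3.3, edgeR 4.0.16, limma 3.58.1, DESeq2 1.42.0, Python 3.11.15, pandas 2.3.3, numpy 2.4.6 and matplotlib 3.10.9.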

Additional observations from a re-analysis of the deposited data

Results flagged for a closer look

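For 5 genes the effect of PQ differed between the times, by the test of the difference itself. The log2 effect at 4w minus that at 1w was -0.48 for Tgfb1, -0.78 for Tgfb2, -0.67 for Tgfb3 and -0.53 for Tgfbr2. All 4 rose at 1w, while at 4w Tgfbr2 passed as higher and the 3 ligands did not pass (-0.13, -0.14 and 0.21). It was 0.69 for Tgfbr3, which was lower in PQ lungs at 1w and level with its controls at 4w. All 5 were called because their adjusted p was under 0.05 in edgeR's quasi-likelihood F-test, which 32.0% of all genes also reached.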

How the results depend on the processing

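The number of the 10 genes that passed at 1w was 8, and 7 to 8 when 1 library was left out. At 4w 1 of the 10 passed in a fit of only the groups compared, and 2 to 3 passed when 1 library was left out. Over all genes the 4w count was 746 in that fit and 641 to 2104 when 1 library was left out, which leaves fewer libraries in the fit. For control 4w against control 1w, the count of the 10 genes was 4 with DESeq2, 0 with the replicate block, 1 on log2 FPKM with either pseudocount and 0 to 3 when 1 library was left out, and the count over all genes was 123 to 2570 when 1 library was left out. The Tgfb2 share at 4w, PQ minus control, was -0.466 points and ranged from -0.949 to 0.223 when 1 library was left out. The cause of these shifts was not tested.

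The sign turned for log2 values that had not passed. When 1 library was left out, the ranges that crossed 0 were Tgfb2 (-0.29 to 0.028), Tgfbr3 (-0.055 to 0.060) and Smad3 (-0.039 to 0.086) in PQ 4w against control 4w, Tgfbr3 (-0.017 to 0.072), Smad6 (-0.0088 to 0.25) and Smad7 (-0.17 to 0.042) in control 4w against control 1w, Smad2 (-0.059 to 0.028) and Smad6 (-0.35 to 0.31) in the difference of effects, and Smad6 (-0.25 to 0.42) in PQ 4w against PQ 1w. The Smad2 difference of effects was also 0.011 with DESeq2 and with RLE factors and 0.047 and 0.040 on log2 FPKM, and Smad6 in PQ 4w against PQ 1w was -0.0016 with the replicate block.

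Replicate numbers did not pair the libraries: of 18 same-numbered pairs 5 had a correlation of deviations over 0.1 (range -0.350 to 0.282), and 2 of 12 libraries correlated best with their own number. With the replicate block 8 of the 10 genes passed at 1w and 2 at 4w, and 7636 and 1646 of all genes.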
